A study of Mus musculus with 8 samples.

Results

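The genes S100a1, S100a3, S100a4, S100a6, S100a8, S100a9, S100a10, S100a11, S100a14 and S100a16 encode members of the S100 family of small calcium-binding proteins. They were taken by symbol from the deposited tables and make up 10 of 24411 genes. The tables hold 17 S100 symbols in all, and the 7 others are given only by their counts or where a result turns on them. The RNA came from A223, which the series title describes as a mouse squamous cell carcinoma line. The cells were either parental or carried a knockdown (KD) of PRDX6, an antioxidant enzyme of the peroxiredoxin family that can repair oxidised membrane lipids. Each genotype was taken at 0 h with DMSO and at 18 h with 100 nM largazole, a cyclic depsipeptide that blocks class I histone deacetylases. This gave 4 groups of 2 replicate libraries, named here parental DMSO, parental largazole, KD DMSO and KD largazole. Drug and time changed together, so their parts in a largazole difference cannot be told apart. KD cells were compared with parental cells, no non-targeting construct was analysed here, and the labels do not say how the knockdown was made or whether the KD cells are 1 clone.

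S100 proteins carry a pair of EF-hand motifs, the helix-loop-helix fold that binds calcium, and mostly act as dimers. On binding calcium they expose a surface that docks onto target proteins such as annexins and nonmuscle myosin, and some are also released and act on receptors such as TLR4 and RAGE. Most of the genes lie in the epidermal differentiation complex, a chromosome region that also holds the cornified envelope genes of squamous epithelium.

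Each library held 13020492 to 15613216 estimated counts, and levels are given as CPM, the count scaled to a common library size by TMM. Some libraries stood apart. The ribosomal RNA precursor Rn45s lay at 1353 and 1212 CPM in parental DMSO replicates 1 and 2 and at 7739 and 949.8 CPM in parental largazole. It lay at 9963 and 2549 CPM in KD DMSO and at 23920 and 742 CPM in KD largazole. Across 10183 genes the log2 difference between replicates had an SD of 0.194 to 0.218 in 3 groups and 0.359 in KD largazole. Prdx6 lay at 233 to 297 CPM in the parental and 64.9 to 86.6 CPM in the KD libraries, with log2 fold changes of -1.81 in DMSO and -1.75 under largazole (adjusted p = 1.28e-05 and 1.7e-05, edgeR's quasi-likelihood test). The labels do not name separate cultures for the replicates, so every p-value here measures the spread among these libraries only, and that spread may be technical.

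Several defining markers of squamous epithelium were at or near 0. Of 12 markers 4 to 5 were at 0 in each DMSO library and 1 in each largazole library. Krt5 and Krt6a had at most 4 counts in any library, Trp63 and Epcam were at 0 in all 4 DMSO libraries, and the simple-epithelium keratin Krt8 lay at 1972 ± 90.5 CPM in parental DMSO (SD, n = 2). The summed squamous markers were at 2035 to 2431 CPM in DMSO and 1265 to 1721 CPM under largazole, and most of this sum was Krt8, which fell by 0.90 in parental and 0.79 in KD cells on the log2 scale (adjusted p = 8.32e-05 and 0.000186). Of the 9 squamous markers tested, 6 rose and 1, Krt8, fell with largazole in parental cells. In KD cells 7 rose and Krt8 fell with largazole. With the knockdown 1 rose in each condition. Krt14, Trp63, Epcam, Perp and Dsp had at most 3 counts in any DMSO library, so they entered the test only through largazole libraries. Jup and Krt18 were well counted in every library and also rose. Jup went from 28.8 ± 2.33 to 94.2 ± 0.052 CPM in parental cells (log2 fold change 1.71, adjusted p = 1.13e-06) and rose by 1.97 in KD cells. Krt18 rose by 0.69 in parental and 0.48 in KD cells (adjusted p = 0.000254 and 0.00248). Sfn had 26 to 56 counts in every library. Fibroblast markers summed to 10520 to 12740 CPM, with Lum at 0 to 2 counts. The largest part of this sum was Vim, with group means of 5257 to 6351 CPM. With the knockdown 7 of 9 tested fibroblast markers rose in DMSO and 5 under largazole, with none lower. With largazole 3 rose and 3 fell in parental cells, and 2 rose and 3 fell in KD cells. Among all tested genes 26.8% rose and 22.6% fell with largazole in parental cells, and 24.6% and 23.1% in KD cells. With the knockdown 7.11% rose and 4.01% fell in DMSO, and 8.12% and 9.67% under largazole. The counts of both marker lists stand beside these shares. S100a4 is itself widely used as a fibroblast marker, and the part of cell identity in its values was not tested. In bulk RNA, fewer cells of a type and less RNA per cell cannot be told apart.

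The members were tested among all 12517 genes with enough counts, and 9 of the 10 were tested. S100a9 fell short of the filter on low counts. S100a14 reached the filter's CPM only in the 4 largazole libraries, S100a3 in all but the 2 parental DMSO libraries, and S100a8 only in 1 KD DMSO and both KD largazole libraries, so these 3 entered the test through the groups where they were high. With largazole in parental cells 6 of the 9 tested members rose and 1 fell at an adjusted p under 0.05. Over all tested genes 49.3% were called, 26.8% higher and 22.6% lower. In KD cells 7 rose and none fell, against 47.7% of all tested genes called, 24.6% higher and 23.1% lower. The median log2 fold change was 0.89 in parental and 0.72 in KD cells for the members, against 0.029 and 0.01 for all tested genes. With the knockdown in DMSO 2 rose and none fell, against 11.1% of all tested genes called, 7.11% higher and 4.01% lower. Under largazole 1 rose and none fell, against 17.8% called, 8.12% higher and 9.67% lower. With 2 libraries against 2, groups that do not overlap are common. Over all tested genes 42.2% were higher and 38.9% lower without overlap with largazole in parental cells, and 35.6% and 34% in KD cells. For the knockdown the shares were 30.5% and 30.3% in DMSO and 25.6% and 27.8% under largazole. A statement below that libraries do not overlap is therefore a description of those values. The 2 largazole comparisons share no library, but each shares its DMSO libraries with the knockdown comparison in DMSO and its largazole libraries with the one under largazole.

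**Figure D1:**
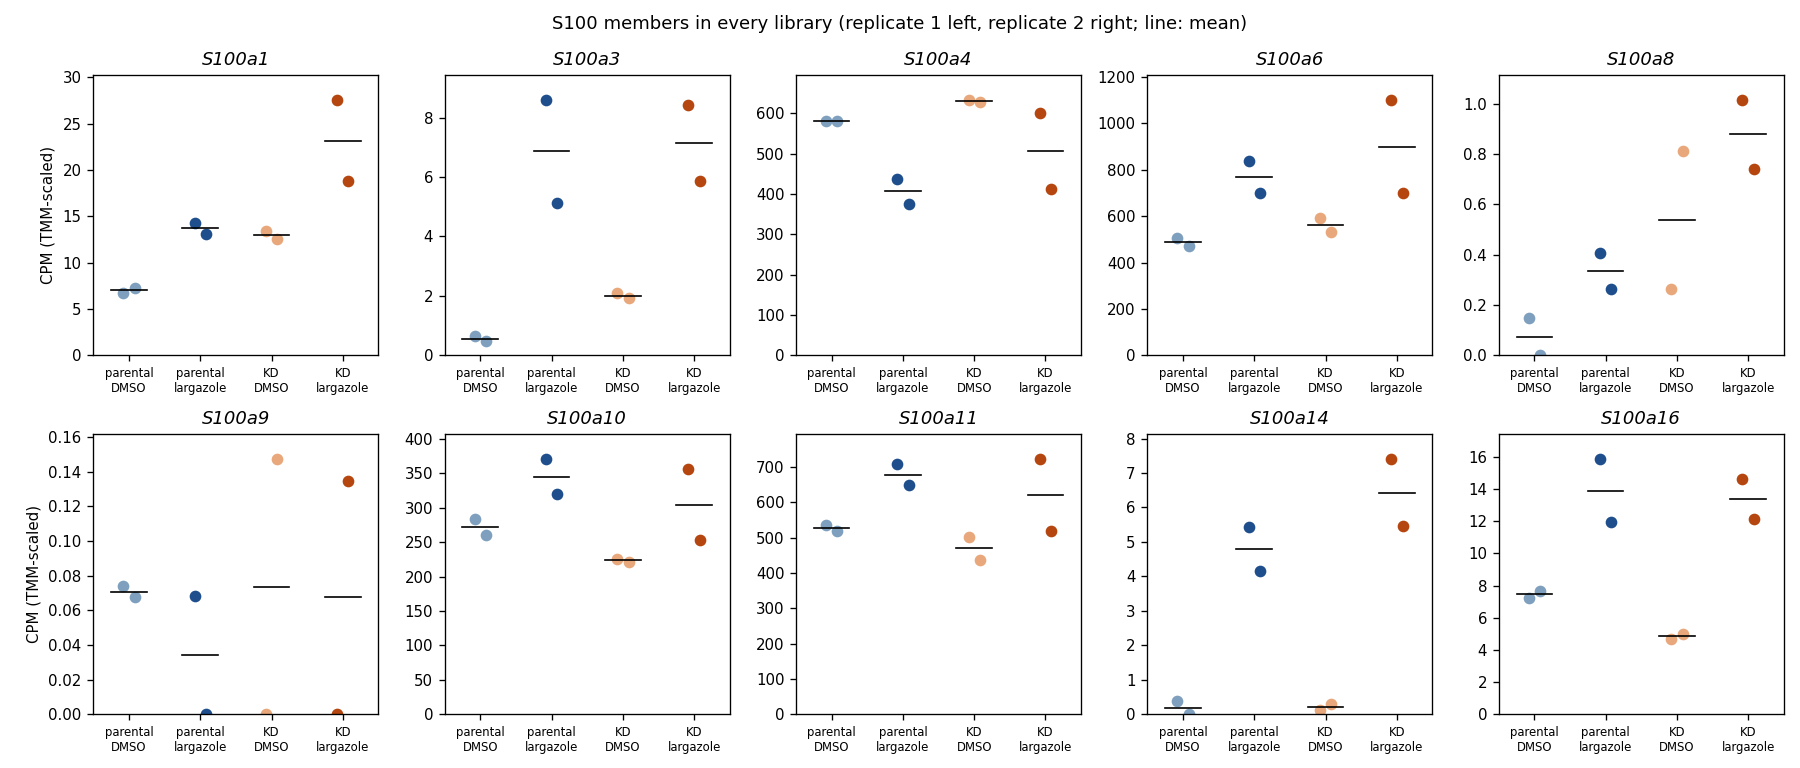
CPM of each of the 10 S100 genes (vertical axis, own scale per gene, starting at 0) in the 4 groups, with replicate 1 left, replicate 2 right and a line at the mean. S100a3 and S100a14 sit below 2.2 CPM in every DMSO library and above 4.1 CPM in every largazole library, while S100a4 is lowest in parental largazole.

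Levels between genes were compared per kilobase of transcript. S100a4, S100a11, S100a6 and S100a10 held 97.8% to 99.2% of the members' counts in every library. In parental DMSO their levels were 1167 ± 1.72, 1032 ± 22.5, 669 ± 35.0 and 397 ± 24.7 CPM per kb (SD, n = 2), in that order and without overlap between neighbours in the order. S100a4 ranked 24 and 25 among 23350 genes with a length there. In parental largazole the order was S100a11 at 1328 ± 84.1, S100a6 at 1051 ± 133, S100a4 at 817 ± 87.1 and S100a10 at 505 ± 52.2 CPM per kb, again without overlap between neighbours. KD DMSO had the parental DMSO order, with S100a4 at 1267 ± 4.53, S100a11 at 919 ± 87.5, S100a6 at 769 ± 56.7 and S100a10 at 326 ± 5.09 CPM per kb. In KD largazole S100a6 at 1229 ± 388, S100a11 at 1214 ± 282 and S100a4 at 1017 ± 269 CPM per kb overlapped, and S100a10 lay below them at 445 ± 107. The other members were far less abundant. In parental DMSO S100a1 lay at 10.4 ± 0.583, S100a16 at 6.63 ± 0.279 and S100a3 at 0.799 ± 0.192 CPM per kb, all separated from their neighbours. S100a14, S100a8 and S100a9 were at 0.175 ± 0.247, 0.152 ± 0.215 and 0.136 ± 0.00882 CPM per kb and overlapped. In KD largazole S100a1 lay at 34.2 ± 9.09 CPM per kb, above S100a16 at 11.9 ± 1.58, S100a3 at 10.03 ± 2.53 and S100a14 at 6.08 ± 1.30. There S100a16 overlapped S100a3, and S100a3 did not overlap S100a14.

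S100a4 and S100a6 lie close together on the same strand, with the barely counted S100a5 between them, and moved in opposite directions with largazole in parental cells. S100a4, which binds nonmuscle myosin and is linked to cell motility and metastasis, occupies chromosome 3, 90603771 to 90606045 on the plus strand (GRCm38). S100a6, or calcyclin, which binds the calcyclin-binding protein Cacybp, occupies 90612882 to 90624181. The bases just before their RefSeq starts are shown because these genes lie close together and differed in direction. Both are from RefSeq (GRCm38.p6, plus strand), ending before the first exon of the gene model, with capitals for the motifs searched. Both strands were searched for every motif. The GC box was searched as GGGCGG, the TATA box as TATAAA and the AP-1 site as TGANTCA. The CCAAT box was searched by those 5 letters, and no match overlaps another in the sequences shown.
S100a4, chr3:90603520-90603769: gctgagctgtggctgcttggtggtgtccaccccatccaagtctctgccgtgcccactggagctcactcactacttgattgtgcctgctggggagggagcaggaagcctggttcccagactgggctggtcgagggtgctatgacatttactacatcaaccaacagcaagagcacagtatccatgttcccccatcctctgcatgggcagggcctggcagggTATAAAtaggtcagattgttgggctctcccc
S100a6, chr3:90612644-90612881: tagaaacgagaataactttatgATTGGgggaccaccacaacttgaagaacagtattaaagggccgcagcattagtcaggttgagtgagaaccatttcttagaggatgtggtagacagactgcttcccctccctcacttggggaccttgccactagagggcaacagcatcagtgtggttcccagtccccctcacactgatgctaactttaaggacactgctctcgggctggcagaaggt
The S100a4 stretch holds 1 TATA box and the S100a6 stretch 1 CCAAT box, read as ATTGG on the plus strand. Over all 32851 RefSeq windows of 250 bases 12.4% hold a TATA box and 33.8% a CCAAT box. A match is a description of the letters only.

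S100a4 lay at 582 and 581 CPM in parental DMSO and 437 and 376 CPM in parental largazole, with both largazole libraries below both DMSO libraries. It fell by 0.52 ± 0.15 on the log2 scale (SE, adjusted p = 0.0147). In KD cells it lay at 632 and 629 CPM in DMSO and at 601 and 412 CPM under largazole, also without overlap. The log2 fold change there was -0.32 ± 0.15 and did not pass the test (adjusted p = 0.0978). It passed in 4 of 16 alternatives (adjusted p 4.15e-07 to 0.412), at -0.32 without a filter on low counts (adjusted p = 0.0161) and at -0.62 without KD largazole replicate 1 (adjusted p = 4.52e-06) among them. The parental call was lost without parental DMSO replicate 1 (adjusted p = 0.0558), parental DMSO replicate 2 (adjusted p = 0.0562) or parental largazole replicate 2 (adjusted p = 0.0928, the highest of 16 alternatives, down to 1.33e-07). With the knockdown the log2 fold changes of S100a4 were 0.12 in DMSO and 0.32 under largazole (adjusted p = 0.684 and 0.173). The exons of S100a3 and S100a4 overlap those of Gm42674, a model on the same strand, so reads of these genes could be split between them.

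S100a6 lay at 507 and 471 CPM in parental DMSO and 837 and 700 CPM in parental largazole. In KD cells its level was 592 and 533 CPM in DMSO and 1099 and 698 CPM under largazole. All 4 largazole libraries were above all 4 DMSO libraries. It rose by 0.65 ± 0.18 in parental and 0.68 ± 0.18 in KD cells on the log2 scale (adjusted p = 0.0114 and 0.00981). Leaving out 1 library gave 0.51 to 0.76 in parental and 0.31 to 0.96 in KD cells. The parental call was lost without parental DMSO replicate 2 (adjusted p = 0.0814) or parental largazole replicate 1 (adjusted p = 0.0901), in a range of 5.39e-08 to 0.0901. The KD call was lost without KD DMSO replicate 2 (adjusted p = 0.0715), in a range of 8.58e-08 to 0.0715. The knockdown gave 0.20 in DMSO and 0.23 under largazole, neither past the threshold (adjusted p = 0.537 and 0.423). A ratio within a library does not depend on scaling. The S100a6 to S100a4 count ratio was 0.871 and 0.811 in parental DMSO and 0.935 and 0.847 in KD DMSO. It was 1.91 and 1.86 in parental largazole and 1.83 and 1.69 in KD largazole. S100a6 thus had fewer counts than S100a4 in every DMSO library and more in every largazole library, in both genotypes and in KD largazole replicate 1 as well.

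**Figure D2:**
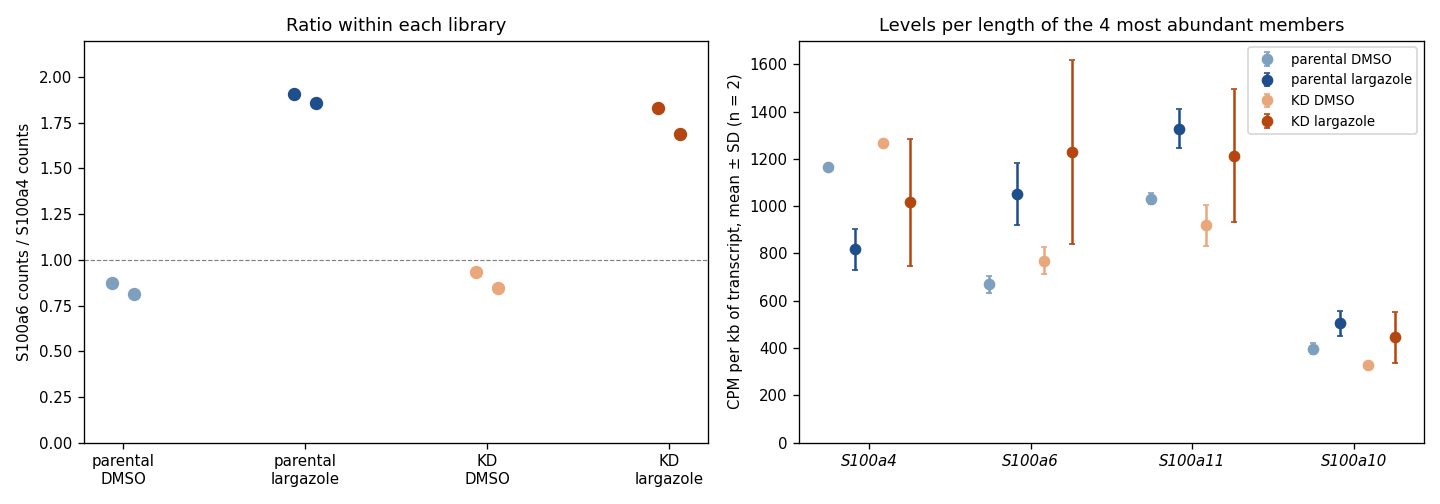
Left, the S100a6 to S100a4 count ratio in each library, replicate 1 left and replicate 2 right, with a dashed line at equal counts. Right, CPM per kb of transcript of the 4 most abundant members, mean ± SD of 2 libraries per group. The ratio is 0.811 to 0.935 in the DMSO libraries and 1.69 to 1.91 in the largazole libraries, and the bars are widest in KD largazole.

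S100a11 and S100a10 form a pair some way along the chromosome and moved little. S100a11, a partner of annexin A1, occupies 93520488 to 93526287, and S100a10, the p11 subunit that joins a pair of annexin A2 molecules and no longer needs calcium, occupies 93555080 to 93564643. The bases upstream of S100a11 (RefSeq, GRCm38.p6, plus strand) are shown for comparison with S100a4 and S100a6, since they hold 3 GC boxes and 2 AP-1 sites, in capitals.
S100a11, chr3:93520246-93520487: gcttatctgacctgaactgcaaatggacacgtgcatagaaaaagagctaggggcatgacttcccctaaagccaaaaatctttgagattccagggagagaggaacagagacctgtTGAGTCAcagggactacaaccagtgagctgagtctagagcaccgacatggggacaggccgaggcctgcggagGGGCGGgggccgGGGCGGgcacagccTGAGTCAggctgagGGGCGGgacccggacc
Over all RefSeq windows 32.7% hold a GC box and 6.75% an AP-1 site, in any number. The share with as many matches as here was not counted. The stretch was picked for its motifs, and windows of S100a3, S100a8, S100a9 and S100a16 that also hold a motif are not shown. The RefSeq table has no promoter entry for S100a10 and S100a14 and matched 8 of the 10 members.

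S100a11 lay at 535 and 519 CPM in parental DMSO and at 709 and 648 CPM in parental largazole. In KD cells it lay at 501 and 438 CPM in DMSO and 722 and 519 CPM under largazole. The largazole libraries were above the DMSO libraries of the same genotype in both cases. The rise was 0.36 ± 0.14 in parental and 0.40 ± 0.14 in KD cells on the log2 scale (adjusted p = 0.0469 and 0.0328). Both calls were near the threshold. Of 16 alternatives the parental call held in 9 and the KD call in 9, with adjusted p from 8.14e-06 to 0.217 and from 3.55e-06 to 0.192. The parental call was lost without either parental DMSO library (adjusted p = 0.145 and 0.192), either parental largazole library (adjusted p = 0.217 and 0.0881) or either KD DMSO library (adjusted p = 0.063 and 0.0631), and with RLE size factors (adjusted p = 0.0509). The KD call was lost without KD largazole replicate 1, where the log2 fold change was 0.14 (adjusted p = 0.151), and without either KD DMSO library (adjusted p = 0.055 and 0.192) or either parental DMSO library (adjusted p = 0.0503 and 0.0506), with only the libraries compared (adjusted p = 0.0892) and with the length trend described below removed (adjusted p = 0.145).

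S100a10 lay at 284 and 260 CPM in parental DMSO and 371 and 320 CPM in parental largazole, and in KD cells at 226 and 221 CPM with DMSO and 357 and 253 CPM with largazole. The largazole libraries again lay above the DMSO libraries of the same genotype. The log2 fold change was 0.34 ± 0.14 in parental cells and did not pass (adjusted p = 0.0641), and 0.45 ± 0.14 in KD cells, which passed (adjusted p = 0.0244). Over 16 alternatives the test was passed in 8 for parental cells (adjusted p 8.63e-05 to 0.329), the fits without either KD largazole library (adjusted p = 0.000294 and 0.000404) among them, and in 12 for KD cells (adjusted p 2.51e-06 to 0.105). The KD call was lost without KD DMSO replicate 1 (adjusted p = 0.0932), KD DMSO replicate 2 (adjusted p = 0.105) or KD largazole replicate 1 (log2 fold change 0.17, adjusted p = 0.0856), and with only the libraries compared (adjusted p = 0.0604). Anxa2, the main partner of S100a10, rose from 1180 ± 18.3 to 1920 ± 53.1 CPM in parental cells (log2 fold change 0.70 ± 0.11, adjusted p = 0.000443). The S100a10 to Anxa2 count ratio in parental cells was 0.239 and 0.223 with DMSO and 0.19 and 0.17 with largazole. In KD cells it was 0.192 and 0.198 with DMSO and 0.162 and 0.146 with largazole. It was lower in both largazole libraries than in both DMSO libraries of each genotype, and the difference in ratio was not tested. The S100a10 to S100a11 ratio varied less, from 0.451 to 0.531 over the 8 libraries.

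With the knockdown in DMSO both S100a10 and S100a11 were lower in each KD library than in each parental one, as were 30.3% of all tested genes, at log2 fold changes of -0.28 and -0.17 that did not pass (adjusted p = 0.247 and 0.51). S100a10 did pass there without either KD largazole library (adjusted p = 0.00511 and 0.00397), in a range of 0.000417 to 0.614. Under largazole the values were -0.18 and -0.13 (adjusted p = 0.417 and 0.565), and the libraries overlapped. In that comparison leaving out a KD largazole library changed several calls. Without replicate 1 S100a10 was at -0.45 and S100a11 at -0.39 (adjusted p = 0.000699 and 0.00173, ranges 0.00056 to 0.841 and 0.00173 to 0.862). Without replicate 2 S100a4 was at 0.57 and S100a6 at 0.52 (adjusted p = 2.34e-05 and 0.000257, ranges 2.34e-05 to 0.89 and 0.000257 to 0.819).

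S100a14 and S100a16 rose with largazole in both genotypes. S100a14 (chromosome 3, 90526856 to 90528837, plus strand) is expressed mainly in epithelia and had the largest largazole log2 fold changes among the tested members. Parental cells had 5 and 0 counts with DMSO and 80 and 63 with largazole. KD cells had 2 and 4 counts with DMSO and 95 and 81 with largazole. In CPM the group means, in this order, are 0.185 ± 0.261, 4.80 ± 0.917, 0.213 ± 0.115 and 6.43 ± 1.37 (SD, n = 2). A count of 0 in one library allows up to 3 counts, or 0.198 to 0.234 CPM depending on the library. Every largazole library was far above every DMSO library. The log2 fold change was 4.69 ± 0.61 in parental and 4.88 ± 0.57 in KD cells (adjusted p = 0.000169 and 8.68e-05). Its size rests on a few DMSO counts. Without parental DMSO replicate 2 the parental value was 3.65. Without parental DMSO replicate 1 only a library with 0 counts is left. The mean of parental largazole was 23.8-fold above the floor of 3 counts in that library, with the error of this mean left out. This is no lower bound for the parental response, since parental DMSO replicate 1, with 5 counts, lay above that floor. Without KD DMSO replicate 2 the KD value was 5.51. The call held in all 16 alternatives in both genotypes (adjusted p at most 0.00184 and 0.00243). With the knockdown the values were 0.23 ± 1.08 in DMSO and 0.42 ± 0.35 under largazole (adjusted p = 0.938 and 0.464).

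S100a16 (90537254 to 90543151, plus strand), which is found in many tissues, lay at 7.25 and 7.69 CPM in parental DMSO and at 15.9 and 11.9 CPM in parental largazole. In KD cells it lay at 4.68 and 5.01 CPM in DMSO and at 14.7 and 12.1 CPM under largazole. All largazole libraries were above all DMSO libraries, and the KD DMSO libraries were the lowest of the 8. It rose by 0.89 ± 0.19 in parental and 1.47 ± 0.20 in KD cells (adjusted p = 0.00301 and 0.000211), and both calls held in all 16 alternatives. The knockdown difference in DMSO, -0.63 ± 0.21, did not pass (adjusted p = 0.084). It passed in 6 of 16 alternatives (adjusted p 0.0142 to 0.343), among them at -0.63 when KD largazole replicate 1 was left out (adjusted p = 0.0276) and at -0.64 when replicate 2 was (adjusted p = 0.0244). Under largazole the knockdown difference was -0.06 (adjusted p = 0.869).

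S100a1 and S100a3 rose with largazole and were also the members called for the knockdown. S100a1, known for regulating calcium release in heart and skeletal muscle, lies on the minus strand at 90511034 to 90514392. Its neighbour S100a13, which takes part in the release of fibroblast growth factor 1 and is not among the 10, starts at 90514435 on the plus strand, so the pair are head to head. The 42 bases between the gene models are shown because both genes rose (RefSeq, GRCm38.p6, plus strand), and they hold none of the 4 motifs.
Between S100a1 and S100a13, chr3:90514393-90514434: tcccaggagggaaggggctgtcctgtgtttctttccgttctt
S100a1 lay at 6.73 and 7.29 CPM in parental DMSO and at 14.3 and 13.1 CPM in parental largazole. In KD cells it lay at 13.4 and 12.6 CPM with DMSO and at 27.5 and 18.8 CPM with largazole. KD DMSO and parental largazole overlapped, parental DMSO was lowest and KD largazole highest. Largazole raised S100a1 by 0.97 ± 0.20 in parental and 0.83 ± 0.18 in KD cells on the log2 scale (adjusted p = 0.00272 and 0.00422), and both calls held in all 16 alternatives. The knockdown raised it by 0.89 ± 0.20 in DMSO (adjusted p = 0.0183) and 0.75 ± 0.18 under largazole (adjusted p = 0.0185). Leaving out 1 library gave 0.89 to 1.01 for largazole in parental and 0.53 to 1.07 in KD cells. For the knockdown it gave 0.83 to 0.94 in DMSO and 0.46 to 1.01 under largazole.

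The knockdown calls of S100a1 held in 12 of 16 alternatives in DMSO and in 13 under largazole. In DMSO the call was lost without parental DMSO replicate 1 (adjusted p = 0.146), parental DMSO replicate 2 (adjusted p = 0.106), KD DMSO replicate 1 (adjusted p = 0.127) or KD DMSO replicate 2 (adjusted p = 0.0695), with log2 fold changes of 0.83 to 0.94. Under largazole it was lost without either parental largazole library (adjusted p = 0.0852 and 0.123) and with only the libraries compared (adjusted p = 0.0639). The adjusted p ranged from 0.000327 to 0.146 and from 0.000119 to 0.123 over the alternatives. S100a13 rose with largazole by 1.66 ± 0.25 and 1.54 ± 0.24 in parental and KD cells (adjusted p = 0.000392 and 0.000523). Its knockdown values were 0.40 and 0.28 (adjusted p = 0.404 and 0.44). Whether S100a1 and S100a13 differ in their response to the knockdown was not tested.

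S100a3 (90560578 to 90602702, plus strand) encodes a cysteine-rich protein of the hair cuticle that binds zinc. Parental cells had 9 and 7 counts with DMSO and 126 and 78 with largazole, and KD cells had 32 and 26 with DMSO and 108 and 87 with largazole. In this order the levels were 0.569 ± 0.137, 6.86 ± 2.43, 2.01 ± 0.136 and 7.14 ± 1.80 CPM (SD, n = 2). The 4 largazole libraries were highest and overlapped between genotypes, the KD DMSO libraries came next and the parental DMSO libraries were lowest. Largazole raised S100a3 by 3.58 ± 0.40 in parental cells (adjusted p = 6.29e-05) and by 1.82 ± 0.32 in KD cells (adjusted p = 0.00122), and both calls held in all 16 alternatives. The knockdown raised it by 1.82 ± 0.47 in DMSO (adjusted p = 0.034). That call was lost without parental DMSO replicate 1 (adjusted p = 0.132), parental DMSO replicate 2 (adjusted p = 0.228), KD DMSO replicate 1 (adjusted p = 0.169) or KD DMSO replicate 2 (adjusted p = 0.102), in a range of 0.00409 to 0.228. Under largazole the knockdown difference was 0.05 ± 0.28 (adjusted p = 0.923).

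The difference between the largazole responses of the genotypes was tested directly, and no member passed, against 0.232% of all tested genes, 0.0399% higher and 0.192% lower. By edgeR's quasi-likelihood test 1 member, S100a3, had an unadjusted p under 0.05, and DESeq2 also called 0 members. For S100a3 the difference was -1.76 ± 0.55 on the log2 scale (unadjusted p = 0.00938, adjusted p = 0.354), so its response in KD cells was smaller without passing the test. Without KD largazole replicate 1 the S100a3 difference was -2.04 (adjusted p = 0.0448), the lowest adjusted p of 15 alternatives, which reached 0.994. For S100a4 the difference was 0.20 (adjusted p = 0.891) and passed only without KD largazole replicate 2, at 0.46 (adjusted p = 0.0124, with up to 1.0 in others). For S100a16 it was 0.57 ± 0.27 (adjusted p = 0.608), and for S100a14 0.19 ± 1.25 (adjusted p = 0.999).

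**Figure D3:**
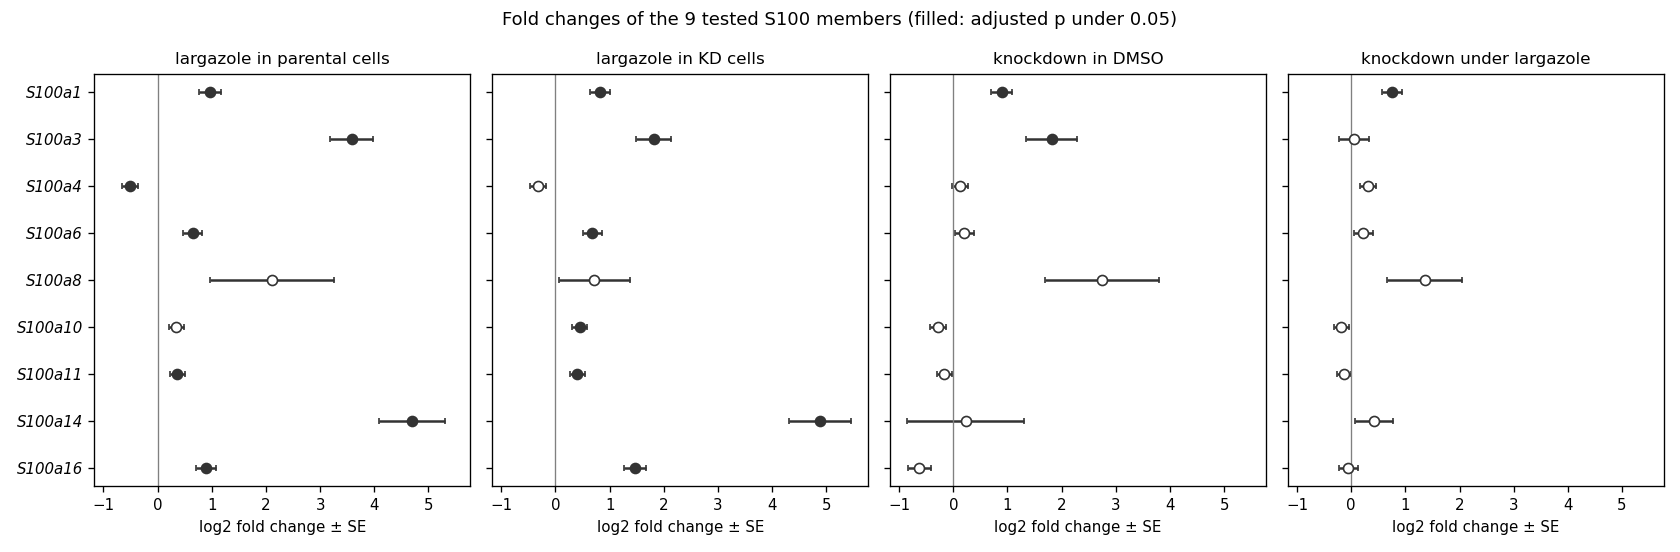
Log2 fold change ± SE of the 9 tested members in 4 comparisons (shared horizontal axis, filled points at an adjusted p under 0.05). S100a14 lies near 4.7 to 4.9 with largazole in both genotypes, S100a3 at 3.58 in parental and 1.82 in KD cells, and S100a1 is the 1 member filled in all 4 panels.

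S100a8 and S100a9 pair into calprotectin, an abundant protein of neutrophils that binds zinc and calcium and signals through TLR4 and RAGE. Both were barely detected. S100a9 had 0 to 2 counts in each of the 8 libraries, under the floor of 3 counts in every library, so no fold is given. S100a8 had 2 and 0 counts in parental cells with DMSO and 6 and 4 with largazole. In KD cells it had 4 and 11 with DMSO and 13 and 11 with largazole. Its parental DMSO libraries were the lowest and did not overlap any other group. Against the 2 counts of parental DMSO, the 10 counts of parental largazole gave a ratio of 4.75 (exact 95% interval 1.01 to 44.6) and the 15 counts of KD DMSO a ratio of 7.39 (1.72 to 66.6). These intervals and the floors cover counting error only. S100a8 did not pass in any comparison, with adjusted p of 0.15 and 0.389 for largazole in parental and KD cells and of 0.134 and 0.219 for the knockdown in DMSO and under largazole. Myeloid markers summed to 4.14 to 5.2 CPM in DMSO and 43.8 to 64.7 CPM under largazole. Of that list, 12 of 13 symbols were found, and 3 of 4 tested rose with largazole in each genotype. Among all tested genes 26.8% rose and 22.6% fell in parental cells, and 24.6% and 23.1% in KD cells. Ptprc, Cxcr2 and Csf1r had at most 4 counts in any DMSO library, so they entered the test only through largazole libraries. Most of the myeloid sum was Cd68, at 4.15 ± 0.33 and 61.8 ± 0.439 CPM in parental DMSO and parental largazole. Tyrobp was at 0 in all 8 libraries, Ptprc at 0 in all DMSO libraries and at 8 to 13 counts under largazole, and Lyz2 at 0 to 4 counts. With the knockdown none of the 4 rose, and 1, Cd68, was lower under largazole, where 8.12% of all tested genes rose and 9.67% fell. The part of such cells in the S100a8 values was not tested. Lymphocyte markers summed to at most 1.05 CPM with Cd3e, Cd3g and Nkg7 at 0 throughout. Endothelial markers summed to 4.42 to 7.97 CPM with Kdr at 0. Most of that sum was Pecam1 and Cdh5, detected in every library at 24 to 64 and 15 to 57 counts. Melanocyte markers summed to 6.07 to 10.7 CPM with Mlana, Dct and Tyr at 0. Most of this sum was Mitf, detected in every library at 88 to 155 counts. In these 3 lists 1, 2 and 1 genes were tested. Ptprc, already counted in the myeloid list, was the 1 tested gene of the lymphocyte list and rose with largazole in both genotypes. Of the endothelial markers 1 rose and 1 fell with largazole in KD cells, and 1 fell with the knockdown under largazole. No melanocyte marker was called.

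Replicates also differed in the members, and other short transcripts differed beside them. The members' transcripts are 486 to 1127 bases long. In KD largazole all 9 tested members were higher in replicate 1 than in replicate 2, by a median of 0.50 on the log2 scale, and 666 genes with transcripts of at most 1127 bases had a median gap of 0.51, against 0.0 over all 9830 genes with a length and at least 5 CPM. In parental largazole the members' gap was 0.26, that of short genes 0.16 and that of all 0.01. In parental DMSO these gaps were 0.11, 0.02 and 0.0, and in KD DMSO 0.03, 0.09 and 0.0. Between groups the medians of short genes were smaller than those of the members. With largazole the median log2 fold change of short genes was 0.09 in parental and 0.13 in KD cells, where the members' medians were 0.89 and 0.72. For the knockdown it was 0.04 in DMSO and 0.10 under largazole, where the members' medians were 0.20 and 0.23. The sets are not alike, since all genes were limited to at least 5 CPM and the members were not. The members' medians include S100a3, S100a8 and S100a14, which entered the test through the groups where they were high. With largazole the other members had -0.52 to 0.97 in parental and -0.32 to 1.47 in KD cells. With each library's trend with length removed, a setting chosen after seeing the data, 7 members rose and 1 fell with largazole in parental cells and 6 rose and 1 fell in KD cells. Calls over all genes increased as well, to 7460 from 6175 in parental and to 7221 from 5971 in KD cells. For the knockdown they went to 2776 from 1392 in DMSO and to 3704 from 2227 under largazole. With this setting S100a4 fell in KD cells by 0.63 (adjusted p = 4.15e-07), and S100a11 no longer passed in KD cells (0.10, adjusted p = 0.145). For the knockdown in DMSO the same setting gave 2 members higher and 3 lower, S100a10 at -0.36 (adjusted p = 0.000417), S100a11 at -0.24 (adjusted p = 0.00931) and S100a16 at -0.71 (adjusted p = 0.0142). Under largazole it gave 2 higher and 2 lower, with S100a4 at 0.14 (adjusted p = 0.0457), S100a10 at -0.33 (adjusted p = 0.00056) and S100a11 at -0.30 (adjusted p = 0.00181). The part of length in the other differences was not tested.

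**Figure D4:**
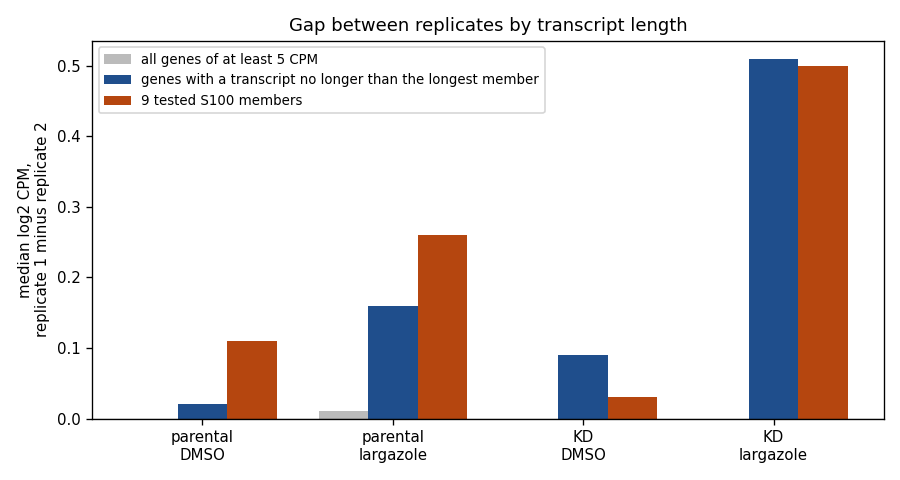
Median log2 CPM difference, replicate 1 minus replicate 2, in each group (bars from 0) for all genes of at least 5 CPM, for genes with transcripts no longer than the longest member, and for the 9 tested members. The members' bar is 0.50 in KD largazole, beside 0.51 for short genes, and at most 0.26 in the other groups.

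All 10 members lie on chromosome 3 in a pair of blocks (GRCm38, GENCODE M21). The first spans 90511034 to 90695721, 185 kb, and holds 8 members from S100a1 to S100a9. The second spans 93520488 to 93564643, 44.2 kb, and holds S100a11 and S100a10, with a gap of 2.82 Mb between the blocks. Within 500 kb of this stretch the tables list 88 other genes, the remaining S100 genes there included, of which 31 were tested. With largazole in parental cells 14 of these rose and 1 fell, at a median log2 fold change of 0.39, and in KD cells 13 rose and 3 fell, at a median of 0.42. Over all tested genes 26.8% rose and 22.6% fell in parental cells and 24.6% and 23.1% in KD cells. How many of the 31 reached the filter only through largazole libraries was not counted. Neighbours with the largest changes at 5 CPM or more included genes of the cornified envelope. Lce1f went from 1.76 ± 1.13 to 25.8 ± 0.552 CPM in parental cells (log2 fold change 3.85, adjusted p = 3.94e-06) and Sprr1a from 4.64 ± 0.498 to 28.0 ± 3.68 CPM (2.59, adjusted p = 8.18e-05). Npr1, the receptor for atrial natriuretic peptide just outside the first block, rose by 2.54 (adjusted p = 2e-05). Lce1g rose by 1.90 in parental cells (adjusted p = 0.00259), and had 0.44 in KD cells (adjusted p = 0.425). Not all genes of that region rose. Ivl, which encodes involucrin, had 0.39 and 0.42 in parental and KD cells (adjusted p = 0.578 and 0.368), and Kprp had -0.36 in parental cells (adjusted p = 0.231) and fell by 1.03 in KD cells (adjusted p = 0.0107). In KD cells Lce1f, Sprr1a and Npr1 rose by 2.66, 2.30 and 2.10 (adjusted p = 3.31e-05, 0.000168 and 4.13e-05). Beyond S100a1, at the edge of the first block, Chtop and Ilf2 had log2 fold changes of 0.12 and -0.18 in parental cells (adjusted p = 0.279 and 0.154), while Snapin, which lies between them, rose by 1.102 in parental and 1.216 in KD cells (adjusted p = 7.33e-05 and 3.8e-05). Ivl, Kprp, Chtop, Ilf2 and Snapin were picked here after their values were seen. The knockdown raised 2 neighbours and lowered 1 in DMSO, and raised 3 and lowered 6 under largazole. Tpm3, a tropomyosin, fell by 0.54 and 0.57 (adjusted p = 0.000652 and 0.000483).

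**Figure D5:**
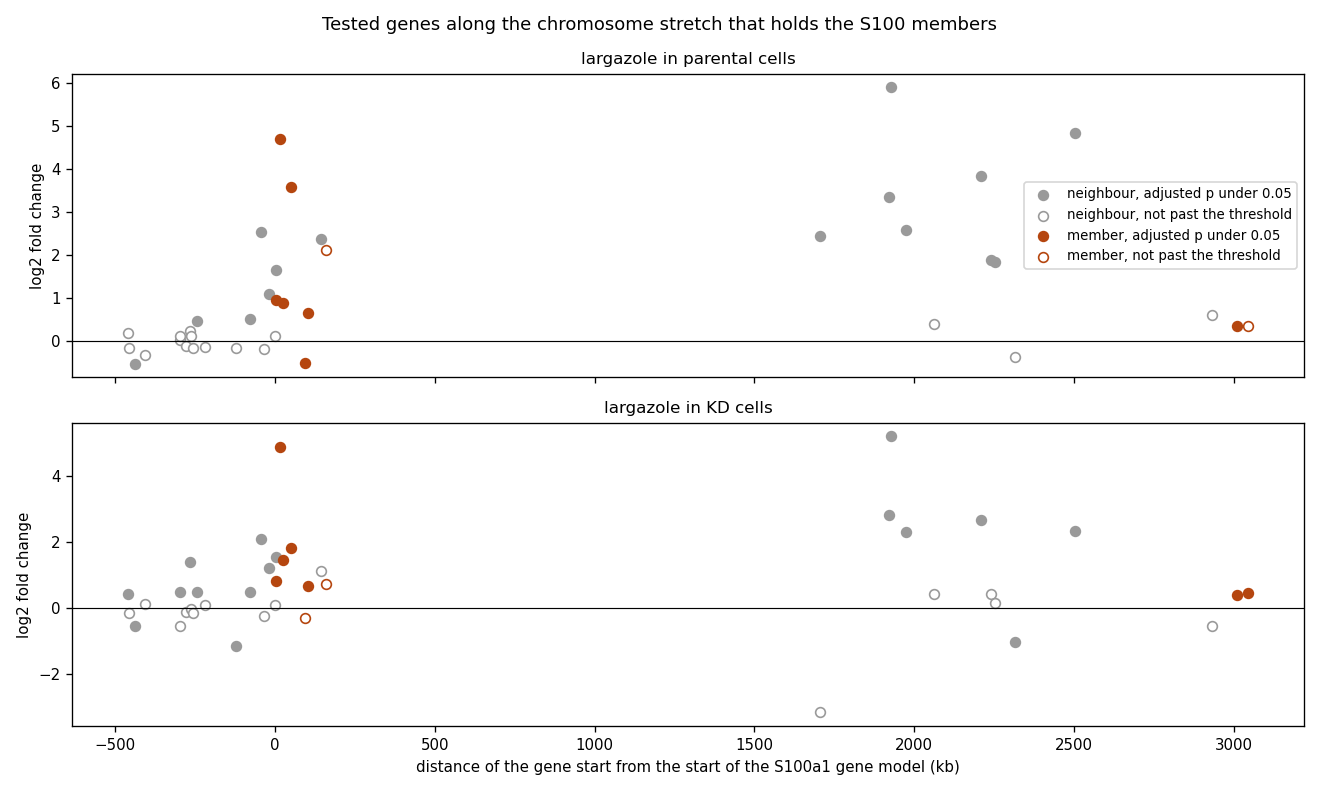
Log2 fold change with largazole of members and tested neighbours (vertical axis) against the distance of the gene start from the start of the S100a1 model in kb, parental cells above and KD cells below, filled at an adjusted p under 0.05. Of the 31 neighbours 14 rose and 1 fell in parental cells, and 13 rose and 3 fell in KD cells.

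Other family symbols were mostly absent. S100a2, S100g and S100z were at 0 in all 8 libraries, S100b had at most 2 counts in a library and S100a5 at most 6. S100a7a, a relative of the skin antimicrobial psoriasin, rose from 0.934 ± 0.588 to 4.96 ± 0.21 CPM with largazole in parental cells (log2 fold change 2.38 ± 0.48, adjusted p = 0.00244) and lay at 0.787 ± 0.554 CPM in KD DMSO and 1.70 ± 0.685 CPM in KD largazole (1.11 ± 0.57, adjusted p = 0.131). The difference between these responses, -1.26 ± 0.77, did not pass (adjusted p = 0.744). It was lower in KD than in parental cells under largazole, at a log2 fold change of -1.56 ± 0.44 (adjusted p = 0.0362).

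Known partners of the proteins were counted from lists chosen by name. Annexins, which bind membranes and S100 proteins, were raised by largazole in 7 of 10 tested genes in each genotype with none lower, at medians of 0.55 and 0.60. All counts of the partner lists stand beside the shares of all tested genes given above, of which 26.8% rose and 22.6% fell in parental cells, 24.6% and 23.1% in KD cells, 7.11% and 4.01% with the knockdown in DMSO and 8.12% and 9.67% under largazole. Anxa6 went from 50.1 ± 0.403 to 270.4 ± 0.313 CPM in parental cells (2.43 ± 0.07, adjusted p = 2.71e-08), Anxa8 rose by 3.11 and Anxa9 by 1.60. In KD cells Anxa8 rose by 3.26, Anxa6 by 2.11, Anxa9 by 1.67 and Anxa4 by 0.78. With the knockdown 2 annexins rose in DMSO, Anxa5 by 0.63 (adjusted p = 0.000836) and Anxa6 by 0.32, and 2 rose and 1 fell under largazole.

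Of 10 cell surface receptors 4 rose and 4 fell with largazole in parental cells and 5 rose and 1 fell in KD cells. With the knockdown 2 rose in DMSO and 5 rose and 1 fell under largazole. Cd36, counted as rising with largazole in each genotype, had at most 1 count in any DMSO library. It had 8 and 10 counts in parental largazole, so it entered the test through KD largazole. Mcam, an adhesion receptor that binds S100A8 and S100A9, rose from 0.673 ± 0.0935 to 36.1 ± 0.916 CPM in parental cells (5.73 ± 0.27, adjusted p = 4.06e-07). Cd14, a co-receptor of TLR4, fell from 36.6 ± 0.676 to 11.5 ± 0.537 CPM (-1.66 ± 0.17, adjusted p = 4.19e-05). Bsg and Nptn, a pair of related immunoglobulin-domain receptors, rose by 0.76 and 0.83. In KD cells Mcam rose by 5.35 and Cd14 fell by 1.48. Ager, which encodes RAGE, had at most 15 counts in any library. Tlr4 rose with the knockdown under largazole from 33.0 ± 7.05 to 49.7 ± 8.42 CPM (0.59 ± 0.16, adjusted p = 0.0273).

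Of 17 tested intracellular targets 6 rose and 5 fell with largazole in each genotype. Myh14, counted as rising in both, had at most 1 count in any DMSO library, so it entered the test only through largazole libraries. With the knockdown 1 target rose in DMSO, and 1 rose and 1 fell under largazole. Trp53, the tumour suppressor p53, fell by 0.99 and 0.92 in parental and KD cells, and Ahnak, a scaffold that binds the annexin A2 and S100A10 complex, rose by 0.67 and 0.75 (adjusted p = 3.45e-05, 5.45e-05, 0.000168 and 8.09e-05). Cacybp, the S100A6 partner, fell by 0.63 in parental and 0.55 in KD cells (adjusted p = 0.000101 and 0.000259).

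Of 8 tested genes of plasminogen activation, a system to which cell surface S100A10 binds, 4 rose and 2 fell with largazole in parental cells and 2 rose and 2 fell in KD cells. Plau, the urokinase, fell by 0.56 and 0.94 and its receptor Plaur by 0.98 and 0.87 in parental and KD cells. With the knockdown 1 rose in DMSO, Plau by 0.78 (adjusted p = 0.000135), and Plau rose by 0.40 under largazole (adjusted p = 0.00475). Of 27 other EF-hand genes 13 rose and 6 fell with largazole in parental cells and 13 rose and 5 fell in KD cells. Efhd1 and Cib2, counted as rising in both, had at most 3 and 4 counts in any DMSO library. They entered the test only through largazole libraries. For the knockdown 3 EF-hand genes were higher and 3 lower in each condition. Rcn3, a calcium-binding protein of the secretory pathway, rose by 1.82 with largazole in parental cells and by 1.47 with the knockdown in DMSO. Of 6 tested C/EBP and related regulators of myeloid S100 genes 2 rose and 2 fell with largazole in parental cells, 2 rose and 1 fell in KD cells, 3 rose and 1 fell with the knockdown in DMSO, and 4 rose and 2 fell under largazole. Cebpd rose with the knockdown from 47.7 ± 2.45 to 171 ± 29.9 CPM in DMSO (1.84 ± 0.15, adjusted p = 7.72e-05). Of the epidermal S100-fused type proteins 1 was tested and not called. No gene of these 7 lists was called for the difference between largazole responses.

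For members whose group means spanned at least 1 on the log2 scale, the 3 genes with the most similar profile over the 8 libraries were found among 10177 genes, by the root mean square difference of centred log2 CPM. For S100a1 they were Gstm2 at 0.08, Pianp at 0.10 and Spp1 at 0.11, and Gstm2 had group means of 11.1, 21.8, 20.6 and 35.5 CPM in parental DMSO, parental largazole, KD DMSO and KD largazole. For S100a16 they were Kirrel3 at 0.14, Uap1l1 at 0.16 and Tspan7 at 0.16. The rarer members had less close neighbours. S100a3 had H1fx at 0.28 and Ggt7 and Tcaf2 at 0.29, S100a14 had Csdc2 at 0.37 and Lppr3 and Mogat2 at 0.38, and S100a8 had Hmcn1 at 0.35, Amph at 0.41 and Gpr153 at 0.43.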

How the data were processed

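Polyadenylated RNA of 8 A223 libraries was profiled. Per the labels' protocols the libraries were strand-specific. The submitters' processing notes name mm10, while the sources used here do not give the aligner, counter, strand setting or annotation. The authors deposited estimated counts per gene symbol, not normalized, with 610 to 692 fractional values per library. These were rounded. Of the symbols, 27 had become dates and held at most 0.312% of a library's counts.

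All 8 libraries entered a single edgeR 4.0.16 quasi-likelihood fit with a mean for each group (TMM, filterByExpr with minimum count 10 and minimum total 15). Its F test is two-sided, and p was adjusted by Benjamini-Hochberg over 12517 genes at 0.05. SE was obtained from the log2 fold change and F. The fit was also run on simulated counts that had the same spread setting for every gene and library, with changes only in genes of at least 5 CPM. These counts held no trend with length and no noisier group, so that run cannot speak for either or for members near the floor. The members, lists and tests were chosen with earlier results of these data known. All members are named, and of each list at most 4 called genes per comparison with at least 5 CPM and the largest changes were eligible. Not every eligible gene is named. Some genes were named outside this rule, among them Cacybp in parental cells, Ager, low-count genes and cell type markers. Alternatives were RLE size factors, library totals only, no filter, DESeq2 1.42.0, only the libraries compared, a replicate block, Rn45s removed, each library left out and, added after seeing the data, removal of the trend with transcript length (lowess, span 0.3, 96.2% of tested genes with a length). Coordinates came from GENCODE M21. Software was R 4.3.3, Python 3.11.15 and, for figures, matplotlib 3.10.9. Counting error is largest for S100a8, S100a9, S100a14 and S100a3. A result for 1 gene of the plasminogen list, and that list's count for the knockdown under largazole, are not reported here.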

Additional observations from a re-analysis of the deposited data

How the results depend on the processing

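The largazole calls of S100a1, S100a3, S100a14 and S100a16 held in both genotypes in all 16 alternatives. S100a1 and S100a16 reached the filter's CPM in all 8 libraries. S100a3 and S100a14 entered the test through the groups where they were high, and most alternatives used the same filter. The number of members called moved as follows when 1 library was left out, which leaves a lone library assumed to vary like the other groups. For largazole in parental cells it was 4 to 8, with 4 without parental DMSO replicate 2. For largazole in KD cells it was 4 to 7, with 4 without KD DMSO replicate 2. For the knockdown in DMSO it was 0 to 4, with 0 without any 1 of the 4 DMSO libraries and 4 without either KD largazole library. For the knockdown under largazole it was 0 to 3, with 0 without either parental largazole library and 3 without either KD largazole library. For the difference between responses it was 0 to 1, with 1 without KD largazole replicate 1 or 2. With only the libraries compared 6 members were called for the knockdown in DMSO and 0 under largazole. Without a filter 2 were called under largazole. With the length trend removed 5 and 4 were called. The cause was not tested.

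Over all genes, leaving out 1 library gave 4223 to 7796, 4293 to 7036, 418 to 3016, 812 to 4121 and 2 to 544 calls, in the order of the comparisons above, where all libraries gave 6175, 5971, 1392, 2227 and 29. With only the libraries compared the knockdown gave 3248 and 957 calls, with the length trend removed 2776, 3704 and, for the difference, 248. The difference also gave 114 calls without a filter and 90 with DESeq2.

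The labels do not say that a replicate number marks a shared culture. Deviations of same-numbered libraries correlated by -0.008 to 0.364 over 10183 genes. With the replicate number as a block 8, 8, 3, 1 and 0 members and 6908, 6702, 2049, 3003 and 119 genes were called. S100a4 passed with the block for largazole in KD cells (-0.33, adjusted p = 0.0197), S100a10 for largazole in parental cells (0.34, adjusted p = 0.00799) and S100a16 for the knockdown in DMSO (-0.63, adjusted p = 0.0492).

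Values that were not called changed sign in some settings. Leaving out 1 library gave S100a14 for the knockdown in DMSO -0.81 to 4.65 and, for the knockdown under largazole, S100a3 -0.26 to 0.47, S100a6 -0.14 to 0.52, S100a10 -0.45 to 0.05, S100a11 -0.39 to 0.09 and S100a16 -0.23 to 0.16. For the difference it gave S100a1 -0.44 to 0.13, S100a4 -0.1 to 0.46, S100a6 -0.34 to 0.33, S100a10 -0.17 to 0.34, S100a11 -0.22 to 0.27 and S100a14 -4.22 to 1.23. With the length trend removed S100a3 had -0.08 under largazole, and S100a6 and S100a11 had -0.05 and -0.06 for the difference.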
